A study of Mus musculus with 9 samples.

Results

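mmu-miR-103-3p and mmu-miR-107-3p, called miR-103-3p and miR-107-3p here, are a pair of nearly identical microRNAs (miRNAs), short RNAs that guide a silencing complex to messenger RNAs. They were chosen by name, 2 of the 1915 mature miRNA names in a table of read counts from mouse milk fat, of which 828 had at least 1 count. The table covers 9 first-litter ICR (CD1) dams, each sampled once on lactation day 10. From 4 weeks of age, for 4 weeks before mating and then through pregnancy and lactation, 5 dams were fed a control chow in which fat gave 10% of the energy (3.85 kcal per g), and 4 were fed a high-fat chow in which it gave 60% (5.24 kcal per g). Both diets drew 7% of their energy from sucrose. ICR is an outbred stock, so the dams of a diet also differ in genotype. The milk fat was washed and spun to remove cells before RNA extraction, and small RNA was sequenced from 1 library per dam.

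Both miRNAs lie inside genes for pantothenate kinases, the enzymes that start the synthesis of coenzyme A, the carrier of fatty acids and acetyl groups in metabolism. In liver and fat of obese mice the pair is known for restraining insulin action, in part by repressing caveolin-1, a membrane protein that stabilises the insulin receptor, and it also represses Dicer, the enzyme that cuts miRNA precursors. The lactating mammary epithelium makes large amounts of fat from glucose and fatty acids, and the fat globules it releases carry some of its cytoplasm. These points are background and none was measured here.

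The sequences show why the members are described together and how far reads can tell them apart. The mature forms are given 5′ to 3′ from RefSeq (GRCm38.p6), with the seed, bases 2 to 8, which pairs with targets, in capitals.

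miR-103-3p: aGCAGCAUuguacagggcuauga

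miR-107-3p: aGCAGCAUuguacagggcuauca

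Both are 23 bases long and share 22 of them. Counted from 1 at the 5′ end of miR-103-3p, the only difference is G22C, the next-to-last base. They share the seed GCAGCAU, and no other mature mouse miRNA in the RefSeq table has it. A read that ends at base 21 or earlier fits both names, and how such reads were assigned is not stated in the sources used here.

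miR-103-3p comes from a pair of genes and miR-107-3p from a single gene, each on the strand of its host. Mir103-1 lies at chr11:35782396-35782481 in intron 5 of Pank3, Mir103-2 at chr2:131288052-131288137 in an intron of Pank2 (intron 5 in its transcript of 7 exons), and Mir107 at chr19:34820687-34820773 in intron 5 of the Pank1 transcripts of 7 exons (GENCODE M21, GRCm38). The hairpins are shown with the mature 3p arm in capitals, to let its flanks be compared.

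Mir103-1: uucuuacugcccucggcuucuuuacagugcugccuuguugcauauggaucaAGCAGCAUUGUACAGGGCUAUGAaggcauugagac

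Mir103-2: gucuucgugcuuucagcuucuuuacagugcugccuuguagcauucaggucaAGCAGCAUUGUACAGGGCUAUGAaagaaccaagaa

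Mir107: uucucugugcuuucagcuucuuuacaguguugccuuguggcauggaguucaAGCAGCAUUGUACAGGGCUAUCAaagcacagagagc

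The mature sequence of miR-103-3p is the same in both of its hairpins, which share an unbroken stretch of 27 bases around it, 3 before it and 1 after it. A read inside that stretch cannot be placed at Pank3 or Pank2. The Mir107 hairpin shares 24 bases with each of the others, and the stretch ends at the base before the difference. The table has a row of miR-103-3p for each hairpin, and the row of mir-103-2 was the higher in 9 of 9 libraries. Its excess over the mir-103-1 row was smallest in control library 5, at 11 counts, and largest in high-fat library 2, at 63. As a percentage of the row, the excess ran from 0.0820% in high-fat library 4 to 0.244% in high-fat library 1. The levels below use the higher row, so that a read counted in both was not added again.

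Milk fat held both miRNAs at high levels in every library, with no difference between the diets beyond the spread of dams. miR-103-3p had 192216 counts over the 9 libraries and miR-107-3p 30073. By mean share of the counts, miR-103-3p ranked 21st and miR-107-3p 50th of all names. Control library 5 was the smallest, with 837817 counts in total, and high-fat library 2 the largest, with 3897109. The 95% Wilson intervals of single libraries, which cover counting error only, were narrower than the spread of dams. The milk epithelium markers, led by miR-146b-5p and miR-148a-3p, held 48.2% to 53.9% of the counts.

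miR-103-3p held 0.875%, 1.55%, 1.05%, 0.796% and 0.837% of the counts in control libraries 1 to 5. In high-fat libraries 1 to 4 it held 0.965%, 1.09%, 1.42% and 0.832%. Control library 2 (95% Wilson limits 1.52% and 1.57%) and high-fat library 3 (limits 1.41% and 1.44%) were high, the other 7 lay between 0.796% and 1.09%, and the diets overlapped. The mean of mmu-miR-103-3p was 1.02% ± 0.309 on the control diet (SD, n = 5) against 1.08% ± 0.253 on the high-fat diet (SD, n = 4).

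The log2 fold change of miR-103-3p, high-fat over control, was 0.10 ± 0.23 (SE), with an adjusted p of 0.873 by limma-voom over all 312 miRNAs that passed the filter on low counts. Its 95% interval spans 0.757-fold to 1.51-fold, so a moderate change in either direction could not be resolved with 9 dams. The direction rests on single libraries: the log2 fold change was -0.097 without high-fat library 3, -0.017 without high-fat library 2 and 0.26 without control library 2, and the adjusted p was at least 0.647 in each of these fits.

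miR-107-3p held 0.130%, 0.226%, 0.168%, 0.111% and 0.157% of the counts in control libraries 1 to 5. In high-fat libraries 1 to 4 it held 0.160%, 0.159%, 0.226% and 0.149%. Control library 2 and high-fat library 3 were again the highest, and the lowest, control library 4, was also the lowest for miR-103-3p. The mean of mmu-miR-107-3p was 0.158% ± 0.0439 on the control diet (SD, n = 5) against 0.173% ± 0.0356 on the high-fat diet (SD, n = 4).

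The log2 fold change of miR-107-3p was 0.15 ± 0.22 (SE), its adjusted p by limma-voom was 0.812, and it had a 95% interval of 0.792-fold to 1.56-fold. Without high-fat library 3 it was -0.036, and without control library 2 it was 0.30. Neither member was called, and the share of all 312 tested miRNAs called at an adjusted p of 0.05 was 0%. limma-voom called 0 miRNAs, and 32 had an unadjusted p under 0.05, which is 10.3%. limma with a mean-variance trend and limma-voom with quality weights each called 2, neither of them a member. In bulk milk fat, a change in the number of contributing cells and a change in miRNA per cell cannot be told apart.

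**Figure D1:**
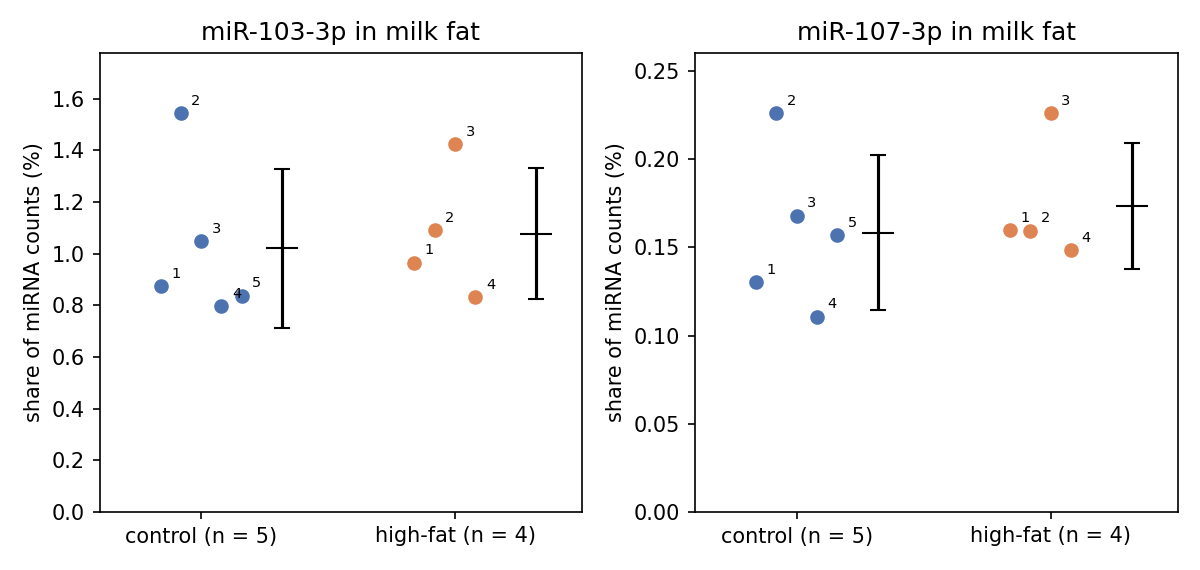
Share of all miRNA counts, in percent, of miR-103-3p (left) and miR-107-3p (right) in each milk fat library by diet, with the replicate number beside each point and the mean and SD as black bars. Control library 2 and high-fat library 3 are the highest on both sides, at 1.55% and 1.42% for miR-103-3p, and the diets overlap.

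The sum of the pair does not depend on how reads that fit both were split between the names, though a read counted under each would enter it again. The summed share averaged 1.18% ± 0.350 on the control diet (SD, n = 5) against 1.25% ± 0.287 on the high-fat diet (SD, n = 4). The difference of 0.0724 percentage points had an exact permutation p of 0.698, two-sided. It was -0.0602 without high-fat library 3, and without any other single library it lay above 0, from 0.00450 without control library 4 to 0.221 without control library 2. It was 0.0290 and 0.0263 without control libraries 1 and 5, and 0.114 and 0.163 without high-fat libraries 1 and 4. The exact tests of the summed share, of each member's share and of the ratio described next form a family of 4, and all 4 had an adjusted p of 0.714 by exact permutation. The smallest two-sided exact p that 5 against 4 libraries allow is 0.0159.

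The ratio of the members varied less between dams of a diet than their levels, with an SD of 0.149 on the log2 scale against 0.365 for the share of miR-103-3p and 0.344 for that of miR-107-3p. Counts of miR-103-3p per count of miR-107-3p were 6.70, 6.83, 6.24, 7.18 and 5.33 in control libraries 1 to 5. They were 6.05, 6.84, 6.29 and 5.60 in high-fat libraries 1 to 4. The lowest ratios were those of control library 5 and high-fat library 4, and the diets overlapped. The mean ratio was 6.46 ± 0.714 for controls (SD, n = 5) against 6.19 ± 0.516 for high-fat dams (SD, n = 4).

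On the log2 scale the ratio was 2.68 ± 0.17 and 2.63 ± 0.12, a difference of -0.057 (two-sided exact permutation p = 0.587). Shifts between -0.26 and 0.18 were not rejected by that test at 0.05. Leaving out control library 5 moved the difference to -0.12, with an exact p of 0.200, and leaving out high-fat library 4 moved it to -0.0095. Put as a share of the pair, miR-107-3p made up 13.5% ± 1.39 for controls (SD, n = 5) against 14.0% ± 0.997 for high-fat dams (SD, n = 4).

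The ratio nevertheless varied between libraries by more than counting error, which ran from 0.0196 to 0.0434 on the log2 scale in single libraries. The chi-square of the 2 by 9 table of counts was 19.1 per degree of freedom (8 degrees). With 1 library per dam, differences between dams and between library preparations cannot be told apart. Control library 5, the shallowest, had a ratio of 5.33 with a 95% counting interval of 5.03 to 5.66, below that of control library 4, at 7.18 (6.83 to 7.55).

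**Figure D2:**
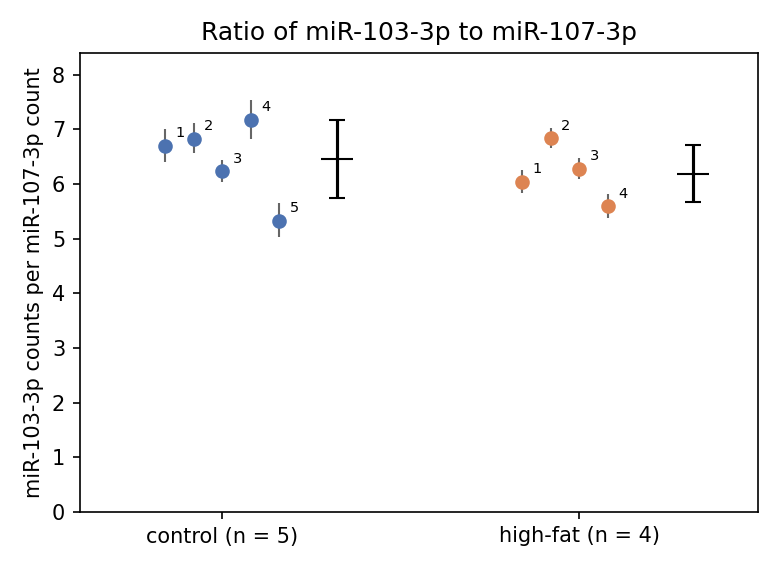
Counts of miR-103-3p per count of miR-107-3p in each library by diet, with 95% counting intervals as thin bars, replicate numbers beside the points, and the mean and SD in black. The 9 ratios lie between 5.33 and 7.18 and the diets overlap.

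The members were high in the same dams and low in the same dams. Over the 9 libraries the log2 shares had a Pearson r of 0.912 (two-sided exact permutation p = 0.00103) and a Spearman rho of 0.883 (exact p = 0.00308). Without control library 2 and high-fat library 3, the libraries farthest from the median of miR-103-3p, r was 0.690 (exact p = 0.0365, n = 7) and rho 0.786 (exact p = 0.0480). It was the only relation between members that was tested. The points share library and depth, and reads that end before base 22 could be counted under either name, and the part of such reads in this relation was not tested.

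**Figure D3:**
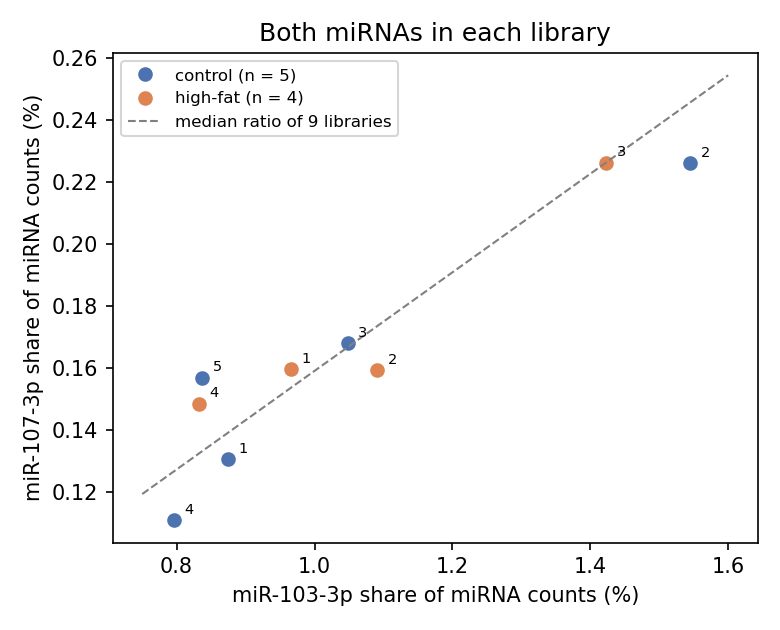
Share of miRNA counts, in percent, of miR-107-3p against miR-103-3p, 1 point per library with its replicate number, coloured by diet, with the median ratio of 6.29 as a dashed line. Control library 2 and high-fat library 3 lie apart at the top, and control library 5 and high-fat library 4 lie above the line.

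Between dams of a diet, the level of each member varied somewhat less than the median over all tested names, which include many with few counts. The SD of log2 CPM, the count scaled by library size, within diets was 0.381 for miR-103-3p and 0.358 for miR-107-3p, and the median over the 312 tested names was 0.436. Of the tested names, 41.7% varied less than miR-103-3p and 37.2% less than miR-107-3p. These values do not compare names of like abundance. The names next to miR-103-3p in mean level varied less than it did, miR-30d-5p at 0.209 and miR-181b-5p at 0.305. Those next to miR-107-3p lay on either side of it, miR-10a-5p at 0.492 and miR-148b-3p at 0.224. The size of the fold change was smaller than that of miR-103-3p in 18.9% of tested names and smaller than that of miR-107-3p in 29.2%.

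In the order of mean levels, as shares of reads, each member differed from its neighbours by less than the SD between dams. Shares were not scaled by length, and read lengths were not examined. miR-30d-5p, at 1.16% ± 0.158 (SD, n = 9), stood just above miR-103-3p, at 1.05% ± 0.269 over all 9 libraries, and miR-181b-5p just below it at 0.992% ± 0.206. miR-30d-5p was the higher in 8 of 9 libraries and miR-181b-5p in 3 of 9. miR-107-3p, at 0.165% ± 0.0388, stood between miR-10a-5p at 0.173% ± 0.0693 and miR-148b-3p at 0.164% ± 0.0271. Each of these was the higher in 6 of 9 libraries.

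The opposite arms of the 3 hairpins, usually discarded when the silencing complex is loaded, were almost absent. They differ from each other at few positions, with the sequences again 5′ to 3′.

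miR-103-1-5p: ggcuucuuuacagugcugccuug

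miR-103-2-5p: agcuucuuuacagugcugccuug

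miR-107-5p: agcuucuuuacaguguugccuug

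From miR-103-1-5p to miR-103-2-5p the change is G1A, and from miR-103-2-5p to miR-107-5p it is C16U, counted from the 5′ end. As miR-103-1-5p and miR-103-2-5p differ in base 1, a read that includes this base can be assigned to Pank3 or Pank2, unlike the 3p arm. A read that starts later fits both, and how such reads were counted is not stated in the sources used here. miR-103-1-5p had 10 counts in all, 5 in control and 5 in high-fat libraries, and miR-103-2-5p had 18, with 7 and 11. No library held more than 4 counts of either arm. miR-107-5p had 0 counts in all 9 libraries.

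miR-103-3p thus had 6865 counts per count of its 5p arms, with a 95% Poisson interval of 4750 to 10331 that covers counting error in the 5p arms only. miR-107-3p had at least 10024 counts per 5p count, with the 5p arm set to the 3 counts that a count of 0 over all libraries allows. Across 99 other arm pairs whose major arm reached 1000 counts, the median ratio of major to minor arm was 105, and 3 pairs had a larger ratio than miR-103. Minor arms under 3 counts were set to 3, so the largest ratio a pair can reach grows with its major arm. Pairs near 1000 counts could not reach 6865 whatever their use of arms, so this comparison partly reflects depth. None of the passenger arms reached the filter for the diet test.

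The miRNAs with the most similar profile over the 9 libraries were found by Pearson's r of log2 CPM, as a description. The closest to miR-103-3p was miR-107-3p, with r of 0.919, and the reverse held too. For miR-103-3p the next were miR-34c-5p (0.794), from a family that responds to p53, miR-93-3p (0.773), miR-28a-5p (0.765) and miR-190a-5p (0.686). For miR-107-3p they were miR-193a-5p (0.788), miR-339-3p (0.691), miR-17-3p (0.685) and miR-200b-3p (0.661), an epithelial miRNA. Beyond the members themselves the lists have no name in common. The median r over the other tested names was -0.05 for miR-103-3p and -0.02 for miR-107-3p. Apart from miR-200b-3p, each of these miRNAs had a mean share of at most 0.0410% in either diet.

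The miR-15/16 family, known for repressing cell cycle genes, reads nearly the same target letters as the pair, shifted by 1 base. Bases 2 to 8 of its members are bases 1 to 7 of miR-103-3p and miR-107-3p, as the capitals in its most abundant member and in the member with the largest fold change show.

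miR-16-5p: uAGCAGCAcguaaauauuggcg

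miR-15a-5p: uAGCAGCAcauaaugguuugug

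The family of 6 members held less of the milk fat counts than the pair, 0.374% ± 0.0605 for controls (SD, n = 5) against 0.424% ± 0.122 for high-fat dams (SD, n = 4). All 6 passed the filter and had fold changes above 0, with a median log2 fold change of 0.28. Both members of the pair were above 0 as well, but without high-fat library 3 they lay below it, at -0.097 and -0.036. Over all 312 tested names 158 were above 0 and the median was 0.00. The 6 names were measured in the same libraries, so their signs are not independent. None of the 6 was called. miR-15a-5p had the largest log2 fold change, 0.65 ± 0.23 (limma-voom adjusted p = 0.385), and its 4 high-fat libraries lay above all 5 controls, as was so for 3.21% of tested names. miR-16-5p measured 0.06 ± 0.22, miR-15b-5p 0.20 ± 0.22, miR-322-5p 0.32 ± 0.19, miR-195a-5p 0.24 ± 0.39 and miR-497a-5p 0.53 ± 0.55. Of the libraries with most of the pair, control library 2 held the least of this family, 0.299%, and high-fat library 3 held 0.441%, next to the highest, 0.586% in high-fat library 1. High-fat libraries 1 and 3 were also the highest in leukocyte markers, at 1.23% and 0.353% of counts against at most 0.104% in the other 7, and the part of leukocytes in the family's levels was not tested.

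Other miRNAs tied to insulin were counted from lists. Of 26 miRNAs known to act on insulin signalling or glucose uptake in target tissues, 25 were tested, 15 with fold changes above 0 and 10 below (14 and 11 with median-of-ratios scaling), a median log2 fold change of 0.04 and 0 called by limma-voom. At an unadjusted p under 0.05 there was 1, miR-29c-3p, which lowers insulin response in cultured fat cells. Its share was 0.0124% ± 0.00353 for controls (SD, n = 5) against 0.0179% ± 0.00355 for high-fat dams (SD, n = 4), a log2 fold change of 0.57 ± 0.23 (limma-voom adjusted p = 0.436). The 3 most abundant, members of the let-7 family that repress the insulin receptor and its substrate, measured 0.08 ± 0.16 (let-7i-5p), 0.05 ± 0.16 (let-7f-5p) and 0.20 ± 0.13 (let-7g-5p) on the log2 scale. This list as a whole held 17.5% ± 1.29 of the counts of controls against 18.2% ± 0.383 of those of high-fat dams.

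Of 10 miRNAs of insulin-secreting beta cells, 4 passed the filter, all with fold changes above 0 (3 of 4 with median-of-ratios scaling), and 0 were called or had an unadjusted p under 0.05. miR-375-3p, which limits insulin release and is also made by many epithelia, had a share of 0.315% ± 0.0503 for controls (SD, n = 5) against 0.421% ± 0.0979 for high-fat dams (SD, n = 4), a log2 fold change of 0.39 ± 0.19 (limma-voom adjusted p = 0.534). miR-30d-5p measured 0.00 ± 0.15 and miR-7a-5p 0.02 ± 0.16. Among the names that did not pass the filter, miR-217-5p had a mean share of 2.39e-05% for controls against 0.00480% for high-fat dams. For miR-216a-5p the means were 7.27e-06% and 0.00143%. Neither reached 10 scaled counts in 4 libraries, so these means can rest on few dams. Both control means were also under 0.000109%, the share of 3 counts in control library 3, the largest control library. The size of the difference between diets can therefore not be read from these means. The spread of these names over single libraries, and its relation to the pair, was not tested.

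A list of other miRNAs that sit in introns of host genes held 8 names, among them both arms of miR-33 and of miR-378a. Of these names 6 were tested, 4 of them above 0 and 2 below, and 0 called by limma-voom. The untested names were miR-499-5p and miR-208a-3p. miR-26b-5p, in an intron of a Ctdsp phosphatase gene, had the only unadjusted p under 0.05. Its share was 0.724% ± 0.132 for controls against 0.948% ± 0.0724 for high-fat dams, a log2 fold change of 0.41 ± 0.15 (limma-voom adjusted p = 0.389). The 4 high-fat libraries of miR-26b-5p lay above every control, as was so for 3.21% of tested names. Its relative miR-26a-5p measured 0.23 ± 0.18. miR-378a-3p, from an intron of the metabolic coactivator gene Ppargc1b, measured -0.24 ± 0.11 on the log2 scale (limma-voom adjusted p = 0.534).

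**Figure D4:**
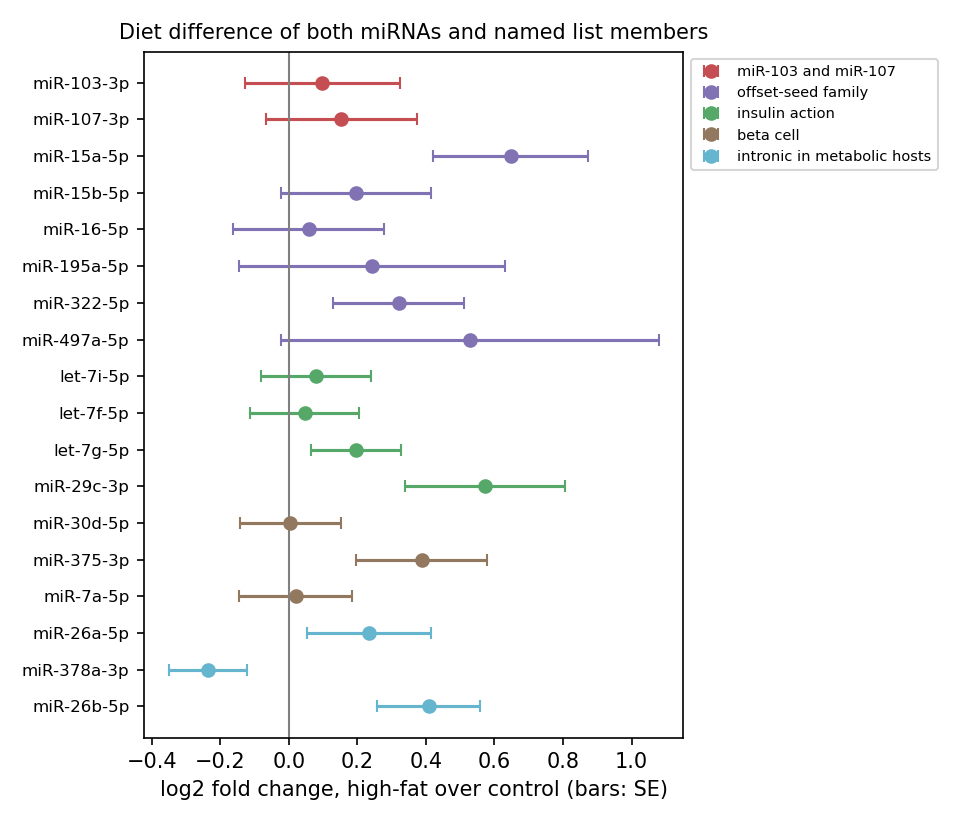
Log2 fold change, high-fat over control, of miR-103-3p, miR-107-3p and the named members of each list, with the SE as bars and colours by list. miR-103-3p and miR-107-3p lie at 0.10 and 0.15 and their bars cross 0, and none of the miRNAs shown was called.

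Markers of other cells were set beside the libraries with most of the pair. High-fat library 3 held 0.0650% of erythrocyte marker counts, against at most 0.0158% in any other library, and 0.00910% of muscle marker counts, against at most 0.000562%. Control library 2, as high in the pair, held 0.00988% and 0.000562%. Leukocyte markers held 1.23% of high-fat library 1 and 0.353% of high-fat library 3, against 0.0284% to 0.104% in the other 7, and high-fat library 1 was at or next to the median for both members. All 7 leukocyte names were detected, 5 of 6 erythrocyte names, with miR-486a-3p at 0, and 2 of 3 muscle names, with miR-206-3p at 0. The adipocyte and stromal markers held 2.62% of high-fat library 4 and 1.10% to 1.97% of the others, and this library was below the median for both members. Most of this share was miR-143-3p, with a mean of 1.46% out of 1.56% for controls and 1.52% out of 1.61% for high-fat dams. The share thus mainly follows 1 miRNA. The part of these cells in the levels of the pair was not tested. Without high-fat libraries 1 and 3, limma-voom gave log2 fold changes of 0.04 ± 0.28 for miR-103-3p and 0.09 ± 0.26 for miR-107-3p.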

How the data were processed

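Read counts per pair of precursor and mature miRNA were used as deposited, raw and not normalized. The submitters' processing notes name cutadapt 1.9.1, an adapter trimmer, and the build GRCm38. Which aligner and counter were used, and how reads that fit several names were counted, is not stated in the sources used here. Comma separators, present in 833 cells, were removed, and the highest row per mature name and library was kept. Because of these commas the columns were recorded under another unit and no count model was run. Names with 10 counts, scaled to the median library, in at least 4 libraries and 15 in total were tested. Libraries were scaled by trimmed means of M values (30% and 5% trimmed), and limma 3.58.1 in R 4.3.3 fitted voom-weighted log2 CPM with diet as the only term. The procedure was tested on simulated data with changes far larger than those of the members, so its power for small changes was not tested. Tests were two-sided, with Benjamini-Hochberg adjustment over 312 names, and exact permutation tests (SciPy 1.17.1) compared shares and ratios.

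The members and all lists were chosen with earlier results of these data known. Named miRNAs were the members, their passenger arms, the offset-seed family, the 3 most abundant list members and those with an unadjusted p under 0.05, the 5 most alike in profile and the neighbours in level. The untested beta cell names miR-217-5p and miR-216a-5p were added for their difference in mean share. Nearly identical miR-486a-5p and miR-486b-5p entered summed shares once. Each dam gave 1 library. Dams shared cages in pairs before mating, and cage could not be entered in the fit. Replicate numbers in the titles do not pair dams across diets.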

Additional observations from a re-analysis of the deposited data

Results flagged for a closer look

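In 28 groups of values the highest and lowest library was compared with the rest of its diet. An outlying library was found in 5. At a nominal rate of 1 in 20 the number due is 1.4. The groups share libraries and some names, so the hits are not independent, and 5 against 1.4 does not measure an excess over chance. The share of miR-107-3p was 0.226% in high-fat library 3, apart from the other 3 high-fat libraries. The same library stood apart in erythrocyte markers, at 0.0650%, and in muscle markers, at 0.00910%. High-fat library 4 stood apart in adipocyte and stromal markers, a share made up mostly of miR-143-3p, at 2.62%. Control library 5 stood apart in milk epithelium markers, at 48.2%, the lowest of the controls.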

How the results depend on the processing

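Neither member, the ratio nor the summed share passed 0.05 under any alternative run. Leaving out 1 library at a time, the log2 fold change of miR-103-3p ranged from -0.097 to 0.26 and that of miR-107-3p from -0.036 to 0.30, the difference in log2 ratio from -0.12 to -0.0095, and that in summed share from -0.0602 to 0.221 percentage points. Below 0 were miR-103-3p without high-fat library 2 or 3, and miR-107-3p and the summed share without high-fat library 3. Without high-fat libraries 1 and 3 the summed share differed by -0.0635. All other alternatives (scaling, filter, weights, rows of a name, pseudocount) kept the direction of these 4 results. The number of miRNAs called, 0, became 4 without the filter on low counts, 2 with a mean-variance trend, 2 with quality weights, 3 with the replicate block, and 0 to 4 leaving out 1 library at a time, with 4 only without control library 5.

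Libraries 1 to 4 of the diets share only a number: their deviations correlated at 0.062, -0.076, 0.20 and -0.16. With the replicate block the log2 fold changes were 0.029 for miR-103-3p and 0.15 for miR-107-3p, the log2 ratio differed by -0.12 and the summed share by 0.0263. For the ratio and the summed share these differences are by construction those without control library 5, so they are not a separate check. With 4 pairs no sign-flip p below 0.125 can be reached, and with 5 against 2 libraries no exact p can pass 0.05. The number of libraries, 1 per dam, and the spread between them limit the tests of both members, rather than depth. Dams and library preparations cannot be told apart in this spread. Depth limits the passenger arms, at no more than 4 counts a library.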
